A study of Mus musculus with 4 samples.

Results

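The genes described here are 38 mouse genes of the actin cytoskeleton and of smooth muscle contraction, together with targets of the transcription factor SRF and of the co-activator YAP, measured among 18194 genes. They were taken by name from a list that held no FOS or EGR genes, and the rule set no threshold on any measured value. The list was nevertheless chosen with earlier results of these data known. Shares of its genes set beside those of all genes are therefore descriptions, not tests. Where a gene had several probe sets, the one brightest on average across the 4 arrays stood for it. The RNA came from melan-a cells, an immortal line of mouse melanocytes, and each of 4 conditions was measured on 1 Affymetrix array. Hmhi-MYC-TA cells, Hmhi-Miz1 kd cells (also described by the submitters as Hmhi-pS-Miz1) and Hmhi cells were each kept for 14 days in starvation medium with dialyzed serum and 100 ng/ml EGF. The fourth culture was Hmhi cells starved for the same 14 days, for which the labels name no EGF. All 4 cultures thus shared the Hmhi background, the starvation medium and the growth medium used before it, which contained TPA and cholera toxin. The labels spell out neither Hmhi nor MYC-TA, and they do not say whether the modified cells were clones or pools. By its title, the study was about control of melanocyte senescence by Myc and Miz-1.

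Actin filaments are built from actin monomers and cross-linked, anchored and moved by myosin and by adhesion proteins. When monomers are drawn into filaments, the SRF cofactors MRTF-A and MRTF-B are released to the nucleus and SRF switches on actin and contractile genes through an element called the CArG box. YAP and its partner TAZ act in parallel: they enter the nucleus of spread and tensed cells, bind TEAD factors and drive genes such as Ccn1, Ccn2 and Ankrd1, while the LATS kinases and angiomotins hold them back. In melanocytes these genes are known mainly for cell shape, dendrite formation and migration, and smooth muscle actin and calponin are not among the defining products of the lineage.

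Values are log2 signals as deposited, and each array had a median of 6.66 over its probe sets. A difference between 2 arrays is on the log2 scale, and a gene counted as higher or lower when it differed at least 2-fold and the brighter of both arrays was at or above its own median. With 1 array per condition there was no replicate spread and no test, so every difference compares 2 arrays and not the conditions. The one measurable spread was technical, between the probe sets of 1 gene, with an SD of 0.32 for Hmhi EGF minus Hmhi starved, 0.22 for the Miz1 kd-labelled array minus Hmhi EGF, 0.25 for MYC-TA minus Hmhi EGF and 0.41 for MYC-TA minus the Miz1 kd-labelled array. Of the 38 genes, 35 passed the level filter in at least 1 comparison. The remaining 3 read below the median everywhere: Tpm2, a muscle tropomyosin, Myl9, a regulatory light chain of myosin, and Fhl1, a LIM protein of muscle. The largest level of the 3 was 6.53, for Tpm2 in the Miz1 kd-labelled array.

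Zbtb17, which encodes Miz-1, read 8.71 in MYC-TA, 9.08 in the Miz1 kd-labelled array, 8.72 in Hmhi EGF and 8.73 in Hmhi starved. It was therefore not lower in the Miz1 kd-labelled array, and directions for that array are those of the array as labelled. Of 13 measured melanocyte markers, between 9 and 10 were at or above the array median on each array, with Sox10 between 12.96 and 13.37 and Tyrp1 between 13.05 and 14.09. Tyr, the tyrosinase gene, read below the median on all 4. The summed log2 level of the 13 was 109.7 in MYC-TA, 115.8 in the Miz1 kd-labelled array, 118.5 in Hmhi EGF and 114.4 in Hmhi starved, lowest in MYC-TA. The melanosome transporter genes Oca2 and Slc45a2 read lowest in MYC-TA: Oca2 read 6.21, 10.09, 9.36 and 8.29 in this order of arrays, and Slc45a2 6.97, 9.70, 9.67 and 8.05. Other markers, such as Dct, Pmel and Kit, were not lowest there. Dct read 11.08, 9.19, 11.26 and 9.79 and Pmel 8.06, 7.73, 8.62 and 7.11, while Kit was highest in MYC-TA, with 7.53, 6.37, 7.04 and 6.12. Of 10 smooth muscle markers outside the member list, 4 or 5 were at or above the median on each array, and the smooth muscle myosin Myh11 and the cofactor Myocd read below it on all 4. The summed log2 level of those 10 was 66.28 in MYC-TA, 66.73 in the Miz1 kd-labelled array, 64.99 in Hmhi EGF and 67.93 in Hmhi starved. All 10 striated muscle markers, Acta1 and Actc1 among them, read below the median on every array. Of 10 fibroblast markers 4 or 5 were at or above it, and their summed level was 73.84 in MYC-TA, 71.57 in the Miz1 kd-labelled array, 74.08 in Hmhi EGF and 71.66 in Hmhi starved. Within that list Col3a1 read 9.69, 6.25, 7.21 and 6.59 in this order of arrays, while Pdgfrb read 6.91, 11.16, 10.18 and 10.45. Dcn read 11.564, 9.448, 10.345 and 11.504, with MYC-TA and Hmhi starved above the others, and Postn 10.026, 8.851, 10.151 and 7.913. The part of other cell types in the differences below was not tested. In RNA from whole cultures, fewer cells of a type and less RNA per cell cannot be told apart.

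Promoter sequence was available for 31 of the 38 genes, as RefSeq windows of build GRCm38.p6, and the 250 bases before the transcript start were searched on both strands for the CArG box and for GGAATG, the core of the TEAD binding motif. The CArG box was searched in its strict form, CC, then 6 bases of A or T, then GG. Stretches that differ from it by 1 base were not counted or capitalized. The Acta2 window below holds such stretches, ccctatatgg and ccttgtttgg. Several genes had more than 1 window, giving 38 windows. A CArG box lay in 9 of these (23.7%), against 482 of 32851 windows of all genes (1.47%), and GGAATG or its complement CATTCC in 13 (34.2%), against 12.6% of all windows. The 2 motifs shared no base in any member window. The genes were listed as SRF and YAP targets from earlier knowledge, so these shares describe the list. These 6 windows are printed as examples: each holds at least 1 match and belongs to a gene whose levels are described after them. Other windows that meet this, such as those of Tpm1, Tagln2, Amotl2, Yap1 and Fhl2, are not printed. Each is given 5′ to 3′ on the strand of its gene, and capitals mark the matches.
Acta2, chr19:34255374-34255623, minus strand: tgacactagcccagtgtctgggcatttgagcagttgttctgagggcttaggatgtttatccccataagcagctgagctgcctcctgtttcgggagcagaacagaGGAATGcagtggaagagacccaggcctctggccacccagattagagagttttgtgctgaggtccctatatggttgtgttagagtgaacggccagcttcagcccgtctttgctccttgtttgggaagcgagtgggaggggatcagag
Ankrd1, chr19:36119845-36120094, minus strand: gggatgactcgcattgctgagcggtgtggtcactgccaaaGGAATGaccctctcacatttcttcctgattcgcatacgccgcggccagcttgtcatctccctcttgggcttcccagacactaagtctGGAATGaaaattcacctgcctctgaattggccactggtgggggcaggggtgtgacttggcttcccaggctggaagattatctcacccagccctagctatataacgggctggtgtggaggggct
Ccn1, chr3:145649986-145650235, minus strand: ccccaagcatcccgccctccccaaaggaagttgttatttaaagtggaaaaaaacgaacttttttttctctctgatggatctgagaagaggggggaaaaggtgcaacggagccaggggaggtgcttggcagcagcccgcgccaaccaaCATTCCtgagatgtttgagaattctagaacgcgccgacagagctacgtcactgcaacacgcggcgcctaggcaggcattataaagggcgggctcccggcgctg
Srf, chr17:46556163-46556412, minus strand: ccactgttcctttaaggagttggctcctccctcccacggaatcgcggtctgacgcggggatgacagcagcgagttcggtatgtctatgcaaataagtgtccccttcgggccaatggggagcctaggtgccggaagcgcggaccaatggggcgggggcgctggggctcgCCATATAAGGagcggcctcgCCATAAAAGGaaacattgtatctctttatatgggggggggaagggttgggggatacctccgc
Filip1l, chr16:57548992-57549241, plus strand: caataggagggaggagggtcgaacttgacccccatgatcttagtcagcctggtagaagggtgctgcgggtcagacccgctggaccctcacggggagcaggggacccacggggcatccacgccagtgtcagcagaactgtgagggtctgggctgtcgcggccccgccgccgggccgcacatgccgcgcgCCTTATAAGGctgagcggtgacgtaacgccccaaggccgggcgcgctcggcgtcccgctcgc
Actg1, chr11:120348496-120348745, minus strand: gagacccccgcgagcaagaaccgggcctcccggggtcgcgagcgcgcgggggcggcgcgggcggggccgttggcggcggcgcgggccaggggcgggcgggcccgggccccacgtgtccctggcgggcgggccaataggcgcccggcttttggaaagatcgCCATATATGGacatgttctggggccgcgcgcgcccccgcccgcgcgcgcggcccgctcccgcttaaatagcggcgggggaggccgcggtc
Ankrd1 carried GGAATG at bases -210 to -205 and -123 to -118 from the start, Acta2 at -146 to -141, and Ccn1 the complement at -103 to -98. Srf carried 2 CArG boxes, at -82 to -73 and -62 to -53, Filip1l 1 at -62 to -53 in its second window and Actg1 1 at -90 to -81. Several genes described below had no match, such as Cnn1 and Lats2, or no window, such as Tagln, Thbs1 and Ccn2. A match is a stretch of letters, not a measured binding site, and a window without one says nothing about the factor.

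Hmhi EGF against Hmhi starved asks about the effect of 14 days of EGF. The smooth muscle type genes Cnn1, Acta2, Tagln and Tpm1 and the YAP targets Ankrd1, Ccn1, Thbs1, Lats2 and Amotl2 all read at least 2-fold lower in Hmhi EGF. Of the 35 genes that passed the filter, 9 were at least 2-fold lower (25.7%), against 4.96% of all 11462 genes, and 1 was at least 2-fold higher (2.86%), against 7.98%. The median difference of the 35 was -0.36, beside 0.01 for all genes. By role, 5 of 6 YAP targets, 3 of 8 thin filament genes and 1 of 4 actins were at least 2-fold lower, and none of 2 myosin genes, 7 cross-linkers and adhesion proteins, 5 LIM proteins or 3 transcription factors was. Melanocyte markers moved here too: of 10 tested, 4 were at least 2-fold higher (40.0%) and 1 lower (10.0%), with a median of 0.45. Their part in the result was not tested.

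**Figure D1:**
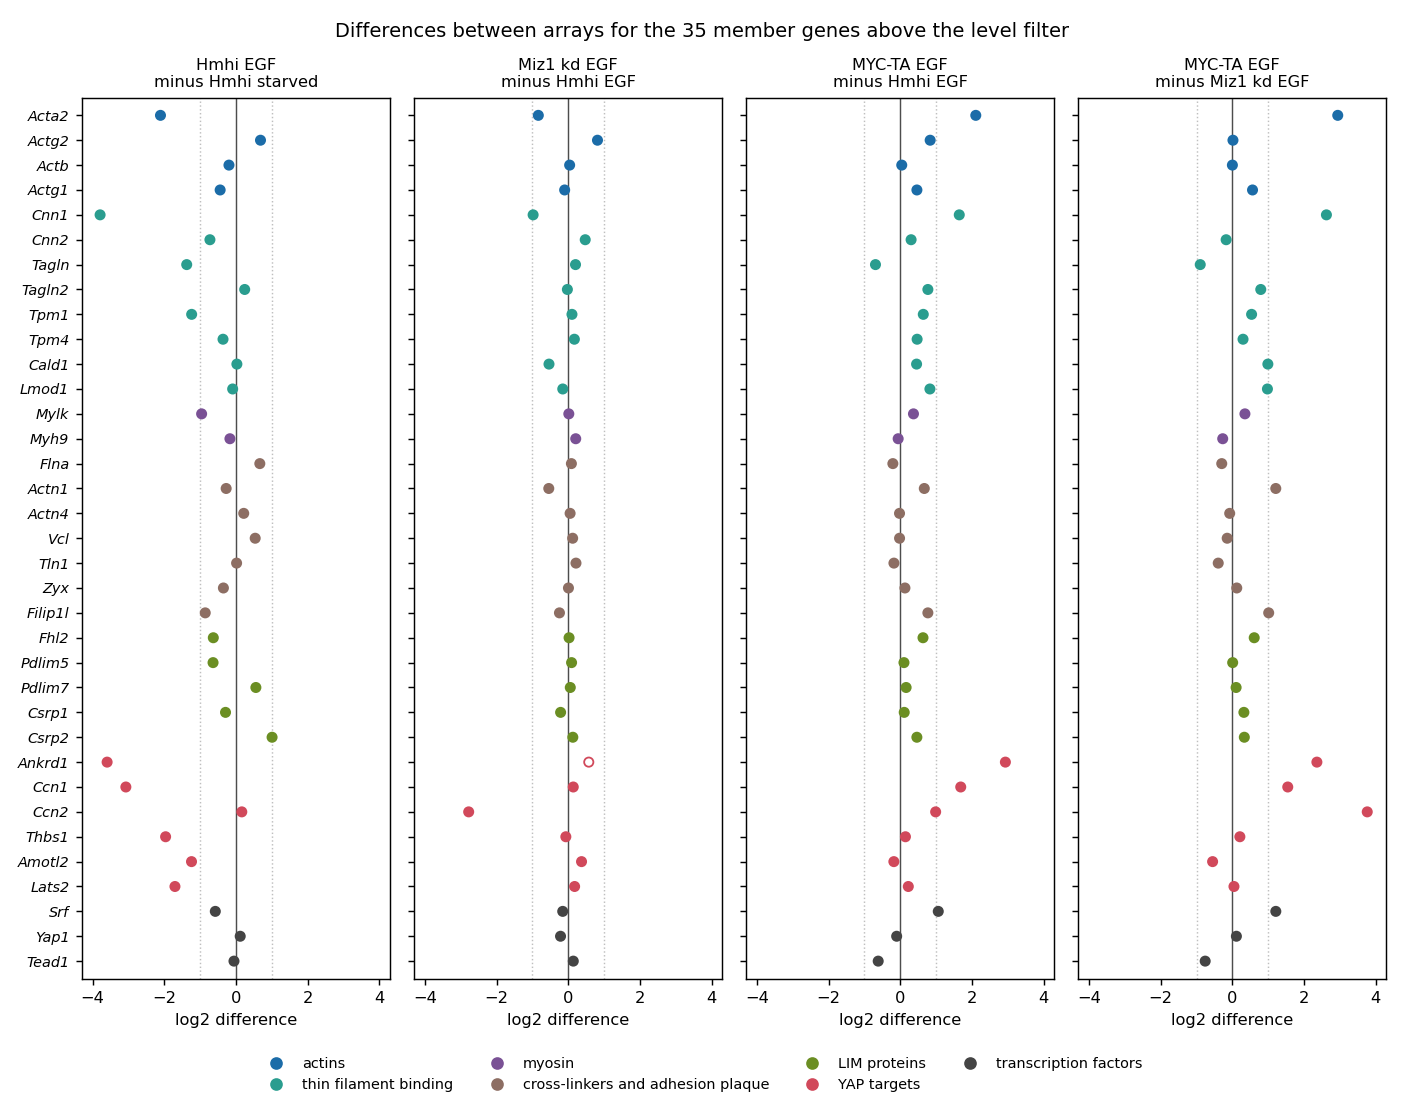
Log2 differences (x axis) of the 35 genes that passed the level filter, 1 row per gene and 1 panel per comparison, coloured by role; dotted lines mark 2-fold and the open circle a value below the filter. In Hmhi EGF minus Hmhi starved 9 genes lie left of the 2-fold line, and in MYC-TA minus the Miz1 kd-labelled array 8 lie right of it.

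The actins did not move as a group. Acta2, the smooth muscle alpha actin that also marks myofibroblasts, read 11.80 in MYC-TA, 8.86 in the Miz1 kd-labelled array, 9.70 in Hmhi EGF and 11.81 in Hmhi starved. It was high in MYC-TA and Hmhi starved and low on the other EGF arrays. Hmhi EGF was 4.32-fold below Hmhi starved, a difference of -2.11, while MYC-TA was 4.31-fold above Hmhi EGF and 7.68-fold above the Miz1 kd-labelled array. The probe set used is of the type whose probes can match several related transcripts, and actin coding sequences are nearly alike. The other 2 probe sets of Acta2 read below the median on every array, so these differences rest on 1 set. Actg2, the gamma actin of gut smooth muscle, read 8.56, 8.54, 7.72 and 7.04 in the same order of arrays. It was lowest in Hmhi starved, the opposite of Acta2, and it stood 2.86-fold above Hmhi starved in MYC-TA and 2.82-fold above it in the Miz1 kd-labelled array.

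The cytoplasmic actins, which every cell uses, differed little. Actb read 14.25 in MYC-TA, 14.25 in the Miz1 kd-labelled array, 14.21 in Hmhi EGF and 14.41 in Hmhi starved, a span of 0.20. That set is the array's own 3′ actin control, and a difference of -0.20 for Hmhi EGF minus Hmhi starved is within the technical SD of 0.32. The control near the 5′ end of Actb read lower than the 3′ control by 0.72 in MYC-TA, 0.74 in the Miz1 kd-labelled array, 0.87 in Hmhi EGF and 0.66 in Hmhi starved. For Gapdh, the array's other such control, the 3′ minus 5′ difference was -0.24, -0.40, -0.31 and -0.22 in the same order. The 2 controls did not rank the arrays alike, as Hmhi starved was lowest for Actb and highest for Gapdh. Both placed Hmhi EGF above the Miz1 kd-labelled array. Actg1 read 13.43, 12.87, 12.96 and 13.41 in that order, so MYC-TA and Hmhi starved were again above the other arrays, across a span of 0.56 without reaching 2-fold.

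**Figure D2:**
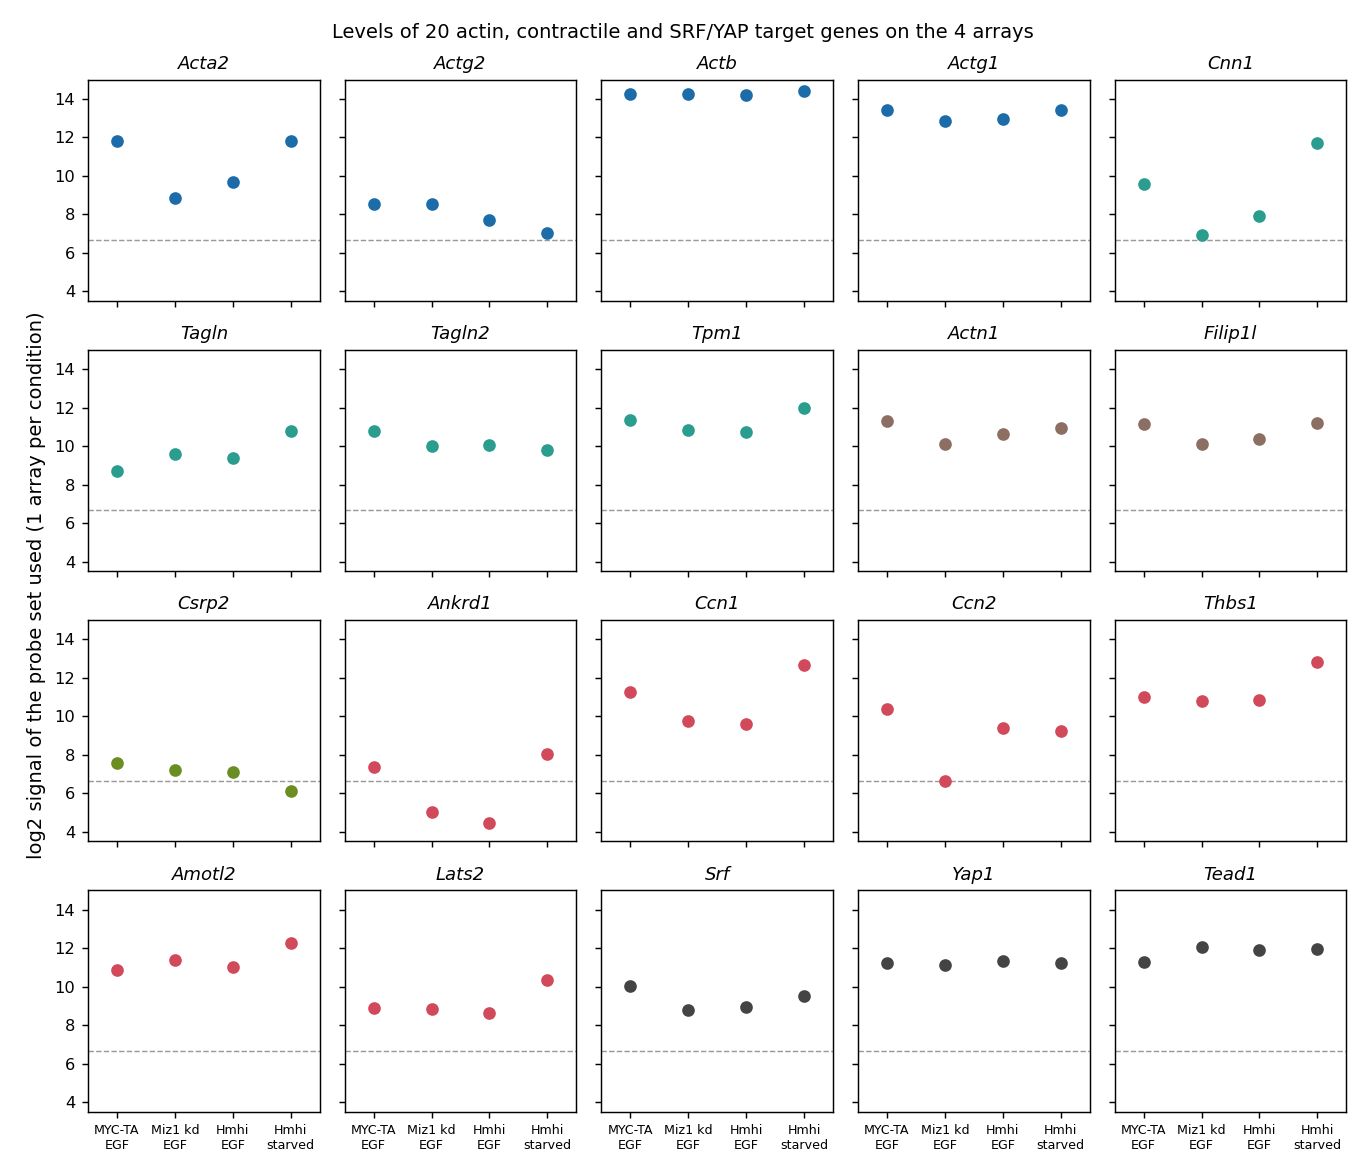
Log2 signal (y axis) of 20 member genes on the 4 arrays (x axis), 1 point per array and 1 panel per gene, with the dashed line at the array median of 6.66. Acta2, Cnn1, Ankrd1 and Ccn1 read higher in MYC-TA and Hmhi starved than on the other 2 arrays, whereas Thbs1 and Lats2 stand apart in Hmhi starved alone.

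Among the proteins that bind the thin filament, Cnn1 had the widest span of all 38 genes. Cnn1 encodes calponin 1, an actin-binding brake on smooth muscle contraction, and read 9.57 in MYC-TA, 6.95 in the Miz1 kd-labelled array, 7.93 in Hmhi EGF and 11.72 in Hmhi starved. Hmhi EGF was 13.9-fold below Hmhi starved and the Miz1 kd-labelled array 27.4-fold below it, while MYC-TA was 3.13-fold above Hmhi EGF and still 4.44-fold below Hmhi starved. Cnn1 was measured by 1 probe set, and its level in the Miz1 kd-labelled array was near the array median, so background limits the 27.4-fold difference. Tagln, which encodes transgelin or SM22, a companion of smooth muscle actin, read 8.69, 9.59, 9.39 and 10.77. It was highest in Hmhi starved, as Cnn1 was, but lowest in MYC-TA, where it was 4.20-fold below Hmhi starved and differed by -0.69 from Hmhi EGF.

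Tpm1, a tropomyosin that runs along the filament, read 11.37 in MYC-TA, 10.83 in the Miz1 kd-labelled array, 10.73 in Hmhi EGF and 11.97 in Hmhi starved. It was 2.36-fold lower in Hmhi EGF than in Hmhi starved, and its other 2 sets that passed the filter differed by -0.97 and -0.61. Tagln2, the transgelin of non-muscle cells, went another way, with 10.81, 10.02, 10.04 and 9.80. It was highest in MYC-TA, 2.01-fold above Hmhi starved. Lmod1 and Cald1, which nucleate actin in smooth muscle and bind tropomyosin-coated filaments, lay just under the 2-fold line for MYC-TA minus the Miz1 kd-labelled array, at 0.98 and 0.99. Other sets of Cald1 gave 1.33 and 1.47 there. Cnn2 and Tpm4, the forms of non-muscle cells, spanned 0.73 and 0.47 over the 4 arrays.

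Of the myosin genes, Mylk, the kinase that activates myosin by phosphorylating its light chain, was just short of 2-fold, at -0.96 for Hmhi EGF minus Hmhi starved. A second set of Mylk gave -1.44 and read 10.69 in MYC-TA, 10.34 in the Miz1 kd-labelled array, 10.27 in Hmhi EGF and 11.71 in Hmhi starved. Myh9, the heavy chain of non-muscle myosin IIA, spanned 0.27.

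Of the 7 cross-linkers and adhesion plaque genes only Actn1 and Filip1l reached 2-fold. Actn1, an alpha actinin that cross-links filaments, read 11.32 in MYC-TA, 10.11 in the Miz1 kd-labelled array, 10.65 in Hmhi EGF and 10.93 in Hmhi starved. It was highest in MYC-TA and lowest in the Miz1 kd-labelled array, 2.32-fold apart, and a second set differed by 1.04. Filip1l, a filamin-interacting protein, read 11.13, 10.12, 10.36 and 11.22. It had the order of Acta2 at a smaller span, with a difference of 1.01 for MYC-TA minus the Miz1 kd-labelled array and -1.11 for that array minus Hmhi starved. Flna, Actn4, Vcl, Tln1 and Zyx, which cross-link filaments or tie them to integrins, spanned between 0.27 and 0.75, though other probe sets of Tln1 differed in sign from one another. Flna and Vcl exceeded their Hmhi starved levels in Hmhi EGF, by 0.66 and 0.53.

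Among the LIM proteins only Csrp2, a LIM protein of smooth muscle, reached 2-fold on the probe set used. It read 7.58 in MYC-TA, 7.24 in the Miz1 kd-labelled array, 7.11 in Hmhi EGF and 6.11 in Hmhi starved. It was lowest in Hmhi starved, where it read below the median, so background limits the fold. The difference for Hmhi EGF minus Hmhi starved was 1.003, on the threshold itself, and dropped under it with the loess correction. Fhl2, an SRF target that also binds SRF, read 8.01, 7.40, 7.38 and 8.02 in the same order, higher in MYC-TA and Hmhi starved. Csrp1, Pdlim5 and Pdlim7 spanned between 0.51 and 0.71, and a second set of Pdlim7 had the opposite sign in some comparisons. For Hmhi EGF minus Hmhi starved a second set of Pdlim5 passed 2-fold, at -1.355, where the set used gave -0.64. The remaining Pdlim5 sets above the filter gave between -0.90 and -0.46 there.

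The YAP targets had several patterns. Ankrd1, a stress-induced ankyrin repeat protein of muscle, read 7.37 in MYC-TA, 5.01 in the Miz1 kd-labelled array, 4.44 in Hmhi EGF and 8.04 in Hmhi starved. Both low values lie below the array median, so background limits the folds of 12.1, by which Hmhi EGF was below Hmhi starved, and 7.64, by which MYC-TA was above Hmhi EGF. A second set differed in the same directions, by -2.44 and 2.15. Ccn1, a secreted matrix protein known as Cyr61, read 11.29, 9.74, 9.60 and 12.68. It was 8.44-fold lower in Hmhi EGF than in Hmhi starved, and MYC-TA stood 3.22-fold above Hmhi EGF but 2.62-fold below Hmhi starved. Its other 3 sets gave between -3.78 and -3.13 for Hmhi EGF minus Hmhi starved and between 1.44 and 1.82 for MYC-TA minus Hmhi EGF.

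Thbs1, Lats2 and Amotl2 read below their Hmhi starved level on all 3 EGF arrays. Thbs1, the secreted adhesion protein thrombospondin 1, read 11.00 in MYC-TA, 10.79 in the Miz1 kd-labelled array, 10.85 in Hmhi EGF and 12.82 in Hmhi starved, and Lats2, the kinase that inactivates YAP, read 8.87, 8.83, 8.65 and 10.36. For both genes the 3 EGF arrays lay close together below Hmhi starved, with differences of -1.97 and -1.71 for Hmhi EGF. Amotl2, an angiomotin that holds YAP in the cytoplasm, read 10.86, 11.41, 11.04 and 12.28. Its difference was -1.25 for Hmhi EGF minus Hmhi starved and -1.42 for MYC-TA minus Hmhi starved. The 3 EGF arrays were each compared with the same Hmhi starved array, so these differences are not independent of one another.

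Ccn2, the secreted matrix protein also called CTGF and a common readout of YAP, did not follow Ccn1. It read 10.40 in MYC-TA, 6.63 in the Miz1 kd-labelled array, 9.41 in Hmhi EGF and 9.25 in Hmhi starved, on 1 probe set. It was high in MYC-TA and near the array median in the Miz1 kd-labelled array alone. Hmhi EGF differed from Hmhi starved by 0.16, within the technical SD of 0.32. Against Hmhi EGF the Miz1 kd-labelled array was 6.85-fold lower, and it was 13.6-fold below MYC-TA.

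**Figure D3:**
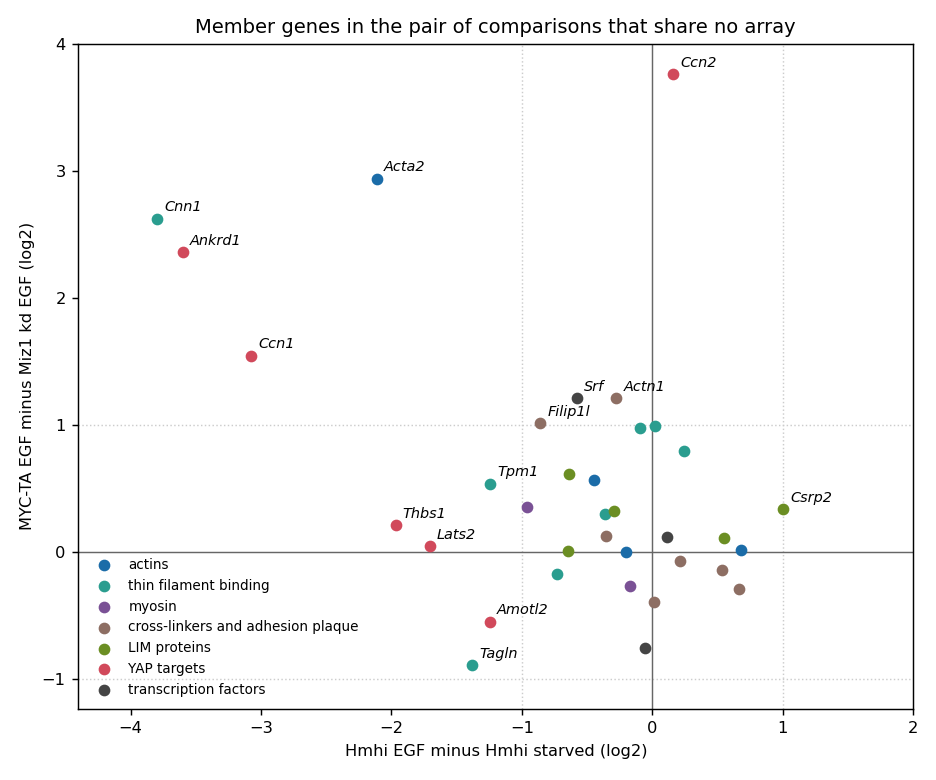
Each point is 1 of 35 member genes, with Hmhi EGF minus Hmhi starved on the x axis and MYC-TA minus the Miz1 kd-labelled array on the y axis, both in log2, coloured by role; dotted lines mark 2-fold. Cnn1, Ankrd1, Ccn1 and Acta2 lie at the upper left, Ccn2 at the top with an x value of 0.16, and Thbs1, Lats2, Amotl2 and Tagln at the left with y values between -0.90 and 0.21.

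Of the 3 transcription factors only Srf reached 2-fold. Srf read 10.02 in MYC-TA, 8.81 in the Miz1 kd-labelled array, 8.96 in Hmhi EGF and 9.54 in Hmhi starved. It was highest in MYC-TA, 2.08-fold above Hmhi EGF and 2.32-fold above the Miz1 kd-labelled array, and a second set gave 0.51 and 0.53. Yap1 read 11.23, 11.11, 11.33 and 11.21 in the same order, a span of 0.21. A second set of Yap1, above the filter, read 8.06, 7.86, 8.23 and 8.63. It gave -0.40 for Hmhi EGF minus Hmhi starved, where the set used gave 0.11, so the sign differed between sets. Tead1, a DNA-binding partner of YAP, read 11.29, 12.05, 11.90 and 11.96. It was lowest in MYC-TA, by -0.62 against Hmhi EGF and -0.76 against the Miz1 kd-labelled array, where its second set gave 0.03 and -0.12.

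The Miz1 kd-labelled array against Hmhi EGF asks about the Miz1 construct in the presence of EGF. Ccn2 alone passed 2-fold, at -2.78. Of 34 genes tested, 1 was at least 2-fold lower (2.94%), against 2.50% of all 11395 genes, a share near the background, and 0 were higher, against 0.290%. The median difference was 0.05, beside 0.02 for all genes. Cnn1 was at -0.98 and Acta2 at -0.83, below the threshold, and Actg2 at 0.82.

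MYC-TA against Hmhi EGF asks about MYC-TA in the presence of EGF. Ankrd1, Acta2, Ccn1, Cnn1 and Srf passed 2-fold with the higher level in MYC-TA, by 2.93, 2.11, 1.69, 1.65 and 1.06. These were 5 of 35 genes (14.3%), against 1.30% of all 11535 genes, and 0 were at least 2-fold lower, against 1.65%. The median was 0.37, beside 0.05 for all genes, and 0.19 with the level filter at the 75th percentile. Melanocyte markers moved in the same comparison: 9 of the 10 tested were below 0, with a median of -0.41, and 2 were at least 2-fold lower, Oca2 at -3.16 and Slc45a2 at -2.70. Their part in the result was not tested. Ccn2 was just under the threshold, at 0.99. In this comparison the 4 actins differed by between 0.04 and 2.11 and the 5 LIM proteins tested by between 0.10 and 0.63. Of these, Actb at 0.04, Pdlim5 at 0.10, Csrp1 at 0.11 and Pdlim7 at 0.16 were within the technical SD of 0.25. Both this comparison and the preceding ones use the Hmhi EGF array, so they are not independent.

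MYC-TA and the Miz1 kd-labelled array were set against each other with EGF in both. Ccn2, Acta2, Cnn1, Ankrd1, Ccn1, Srf, Actn1 and Filip1l passed 2-fold with the higher level in MYC-TA, by 3.76, 2.94, 2.62, 2.36, 1.55, 1.21, 1.21 and 1.01. These were 8 of 35 (22.9%), against 6.72% of all 11614 genes, and 0 were at least 2-fold lower, against 4.26%. The median was 0.30, beside 0.04 for all genes, and 0.17 with the level filter at the 75th percentile. Of the 10 melanocyte markers tested, 2 were at least 2-fold higher and 2 lower, with a median of -0.38. This comparison shares no array with Hmhi EGF minus Hmhi starved. Across the 35 genes the 2 sets of differences had a Pearson r of -0.44 and a Spearman rank correlation of -0.29, beside -0.06 and -0.17 across 11270 genes. The other pairs of comparisons without a shared array went both ways. For MYC-TA minus Hmhi EGF and the Miz1 kd-labelled array minus Hmhi starved, Pearson r was -0.64 across 35 members and -0.47 across 11185 genes. It was thus also more negative for the members, while the Spearman correlations were nearly equal, at -0.47 and -0.46. For the Miz1 kd-labelled array minus Hmhi EGF and MYC-TA minus Hmhi starved, Pearson r was -0.13 across 34 members and -0.40 across 11188 genes. There the members were less negative by both measures, with Spearman correlations of -0.23 and -0.29. The genes are not independent replicates and the 4 arrays have nearly the same distribution of values, so these are descriptions.

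Against Hmhi starved, 10 of 35 genes were at least 2-fold lower in the Miz1 kd-labelled array (28.6%), against 7.43% of all 11456 genes, and 2, Actg2 and Csrp2, were higher (5.71%), against 7.45%. In MYC-TA 6 were at least 2-fold lower than in Hmhi starved (17.1%), against 4.91% of all 11599 genes, and 4 were higher (11.4%), against 8.32%. The 6 were Cnn1, Tagln, Thbs1, Lats2, Amotl2 and Ccn1, and the 4 were Actg2, Csrp2, Ccn2 and Tagln2. For MYC-TA minus Hmhi starved Acta2 differed by -0.004, Fhl2 by -0.003 and Ankrd1 by -0.67. The medians were -0.52 for the Miz1 kd-labelled array and -0.09 for MYC-TA.

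With a 1.5-fold threshold in place of 2-fold, Hmhi EGF minus Hmhi starved had 3 of the 35 genes higher, against 16.7% of all genes, and 14 lower, against 13.3%. In the Miz1 kd-labelled array minus Hmhi EGF 1 of 34 was higher, against 2.15%, and 3 were lower, against 6.99%. In MYC-TA minus Hmhi EGF 13 were higher, against 7.30%, and 2 were lower, against 7.03%. In MYC-TA minus the Miz1 kd-labelled array 12 were higher, against 17.0%, and 2 were lower, against 12.4%. Against Hmhi starved the Miz1 kd-labelled array had 5 higher and 15 lower genes, against 17.5% of all genes in either direction, and MYC-TA had 6 higher, against 16.7%, and 10 lower, against 12.8%. Genes between both thresholds in MYC-TA minus Hmhi EGF included Tagln2 at 0.77, Filip1l at 0.77, Lmod1 at 0.83 and Fhl2 at 0.63.

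Several probe sets per gene gave a partial check within each array. Over the 6 comparisons 46 differences of member genes passed 2-fold, and for 21 of them at least 1 other probe set of the gene passed the level filter. In all 21 every such set had the same sign. The other 25, among them all those of Acta2, Cnn1, Tagln, Ccn2, Amotl2, Actg2, Csrp2 and Filip1l, rest on a single set above the filter.

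**Figure D4:**
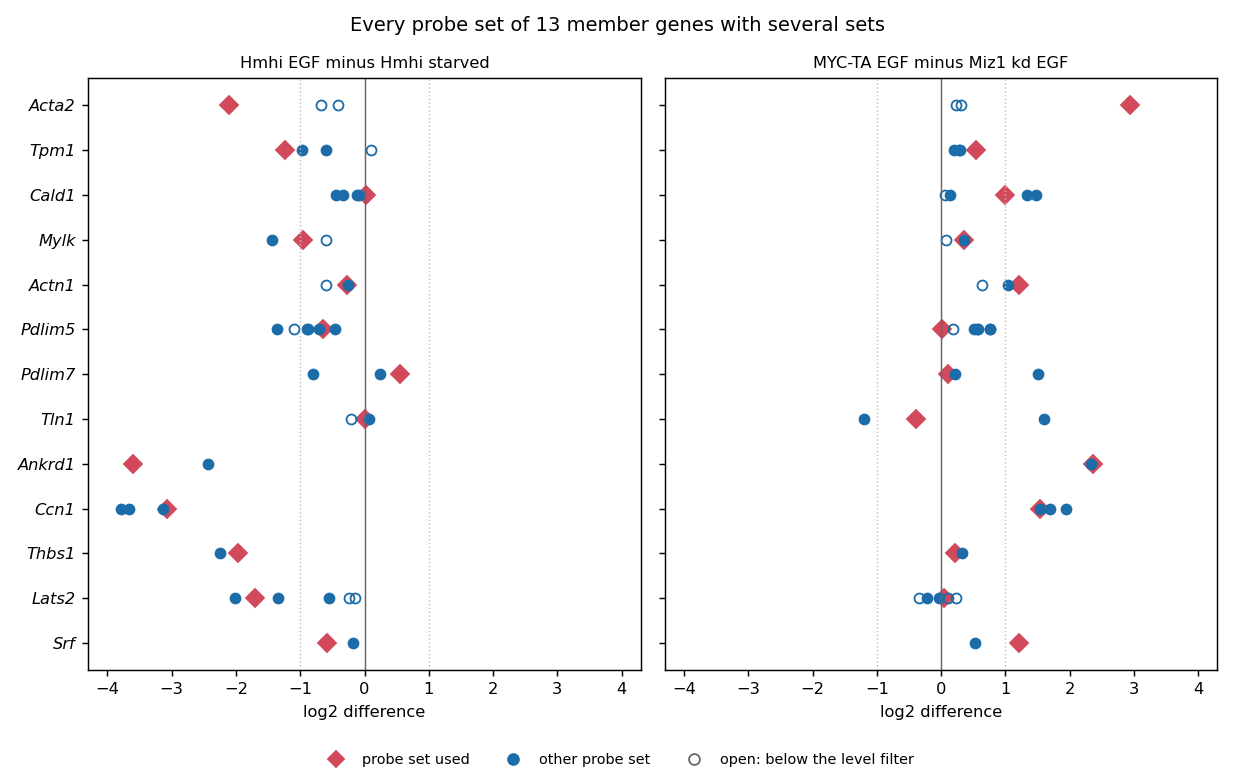
Log2 differences (x axis) of every probe set of 13 member genes in 2 comparisons; diamonds are the sets used, circles the others, and open symbols lie below the level filter. The 4 sets of Ccn1 lie between -3.78 and -3.08 in the left panel, whereas the sets of Pdlim7 and Tln1 fall on both sides of 0.

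Genes of the surrounding pathway were taken from lists that hold no member. Of 21 Hippo pathway genes and TEAD partners, 1 was at least 2-fold higher and 2 were lower in Hmhi EGF minus Hmhi starved (4.76% and 9.52%, against 7.98% and 4.96% of all genes). Vgll3, a TEAD cofactor, read 11.76 in MYC-TA, 10.98 in the Miz1 kd-labelled array, 10.67 in Hmhi EGF and 12.96 in Hmhi starved, the same order of arrays as Ankrd1. Vgll4, a TEAD antagonist, was at -1.23 with EGF and Limd1, a LATS inhibitor, at 1.94.

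Of 14 other tested YAP target genes, 2 were at least 2-fold higher and 5 lower in Hmhi EGF than in Hmhi starved (14.3% and 35.7%, against 7.98% and 4.96% of all genes), with a median of -0.46. Igfbp3, an IGF-binding protein, was at -2.62 and Nt5e, an ecto-nucleotidase, at -2.20, while F3, tissue factor, was at 2.60. In MYC-TA minus Hmhi EGF 1 of the 14 was at least 2-fold higher (7.14%, against 1.30%) and 0 lower (against 1.65%), with a median of -0.02. The higher gene was Tgfb2, a TGF-beta ligand, at 1.14. Of 13 genes of the Arp2/3 complex and branched actin, 0 passed 2-fold in Hmhi EGF minus Hmhi starved, against 7.98% higher and 4.96% lower of all genes. Of the 13 differences 12 were below 0, with a median of -0.34, beside 0.01 for all genes. Wasf1, an Arp2/3 activator, was at -0.99 and Actr3, a subunit of the complex, at -0.91. Of 21 other focal adhesion genes 1 was higher and 2 were lower with EGF (4.76% and 9.52%, against 7.98% and 4.96% of all genes). These were Tln2, a talin, at -1.41, Itgb5, an integrin subunit, at 1.33 and Nexn, an actin-binding protein of muscle, at -1.11. Of 12 other myosin, tropomyosin and filamin genes 1 was higher and 1 lower (8.33% each, against 7.98% and 4.96%), Myh10, non-muscle myosin IIB, at 1.28 and Myo1c, a membrane-bound myosin, at -1.75. Flnc, the filamin of muscle, and Myl6, a myosin light chain, were lower in MYC-TA than in the Miz1 kd-labelled array, at -1.54 and -1.21.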

How the data were processed

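Per the labels' protocols, 100 ng of total RNA per culture was turned into biotinylated cRNA (IVT-Express kit), and each culture had 1 array. The deposited values spanned 2.94 to 15.12 on 45101 probe sets and were read as log2 signals. The summarization, normalization and log base used by the authors are not given in the sources used here. The sorted columns lay within 0.004 of each other, so a shift shared by all genes cannot be seen. In the 2016 platform annotation 34958 probe sets had 1 symbol, 932 several and 9211 none. Entrez identifiers matched RefSeq for 34754 sets and changed 0 symbols. Each gene took its set with the highest mean, control sets included, which applies to Actb.

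Differences were taken between pairs of arrays, with a level filter at the array median of non-control sets and a 2-fold threshold. There were 0 residual degrees of freedom, so no test was run, and precision is limited by how few arrays there are. The members and lists were chosen with earlier results of these data known. Members at least 2-fold apart in any comparison, Srf, Yap1, Tead1, Actb and Actg1 were described on every array, which gave 20 genes, and up to 4 genes with the largest differences were named from each related list. The defining cell type markers Sox10, Tyrp1, Tyr, Myh11, Myocd, Acta1 and Actc1 were also named. Oca2, Slc45a2, Dct, Pmel, Kit, Des, Cspg4 and Hspb6 were named after their values were seen. Mylk, Lmod1, Cald1, Fhl2 and other members under the threshold were named after their values were seen. Listed genes without a probe set of 1 symbol were not analysed here. A further related list is not reported here. Alternatives covered normalization, the level filter, the choice of probe set and a 1.5-fold threshold. Steps were tested on simulated data. The software was Python 3.11.15 with statsmodels 0.14.6, scipy 1.17.1, pandas 2.3.3, matplotlib 3.10.9 and numpy 2.4.6.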

Additional observations from a re-analysis of the deposited data

Results flagged for a closer look

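Of the probe sets that no comparison used, 2 were at least 2-fold apart in the direction opposite to the set that represented their gene. The first was a dimmer set of Tln1, the gene of talin 1, which read 7.29 in MYC-TA, 5.69 in the Miz1 kd-labelled array, 6.28 in Hmhi EGF and 6.49 in Hmhi starved. In MYC-TA it stood above Hmhi EGF by 1.012 and above the Miz1 kd-labelled array by 1.605, whereas the set used gave -0.18 and -0.39. The remaining set of Tln1 gave -0.75 and -1.20. The second was a set of Pdlim7, a LIM protein of stress fibres, which read 9.22, 7.71, 8.06 and 8.87 in the same order of arrays. It was at -1.161 for the Miz1 kd-labelled array minus Hmhi starved, whereas the set used gave 0.61. It was also 1.51 higher in MYC-TA than in the Miz1 kd-labelled array. Which transcripts these sets read was not tested, so the direction of Tln1 and Pdlim7 is uncertain.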

How the results depend on the processing

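No paired analysis was possible because there was a single array per condition, which also prevented leaving any array out. Under a common median, quantile normalization and no level filter, all 46 differences past 2-fold kept their sign and stayed past the threshold. With the loess correction 45 did, with the filter at the 75th percentile 37 (9 were not tested), with averaged probe sets 37, and with plain _at sets alone 30 (12 were not tested, those of Acta2 among them). The sign turned for 0 of the 46 in any of these. The median differences of the members moved by less than the technical SD throughout, though with the filter at the 75th percentile they came to 0.19 instead of 0.37 in MYC-TA minus Hmhi EGF and 0.17 instead of 0.30 in MYC-TA minus the Miz1 kd-labelled array, and no normalization moved the median of all genes by over 0.1.

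Genes at least 2-fold higher in Hmhi EGF minus Hmhi starved numbered 0 instead of 1 with loess, the 75th percentile filter and plain _at sets. For MYC-TA minus Hmhi EGF, 3 instead of 5 were higher with averaged sets and with plain _at sets. Against Hmhi starved, genes higher in the Miz1 kd-labelled array numbered 0 instead of 2 with the 75th percentile filter and with plain _at sets, and those higher in MYC-TA 2 and 1 instead of 4. With the 1.5-fold threshold, 3 genes were higher and 14 lower in Hmhi EGF minus Hmhi starved. In the Miz1 kd-labelled array minus Hmhi EGF 1 was higher and 3 lower, and in MYC-TA minus Hmhi EGF 13 were higher and 2 lower. Then 2 were lower in MYC-TA minus the Miz1 kd-labelled array, 5 higher in that array minus Hmhi starved, and 10 lower in MYC-TA minus Hmhi starved. A lower threshold calls more genes by construction, and the stricter filter and plain _at sets test fewer. Signals near or below the array median, as for Ankrd1, Csrp2, Ccn2 and Cnn1, limit the size of folds.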

Other observations

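The 6 tested smooth muscle markers outside the member list were split in Hmhi EGF minus Hmhi starved, with 3 above and 3 below 0 and a median of -0.15. Of the 6, Ldb3 and Synm were more than 2-fold lower in Hmhi EGF (33.3%, against 4.96% of all genes). Smtn was more than 2-fold higher (16.7%, against 7.98%). Ldb3, a Z-disc protein of muscle, read 7.30 in MYC-TA, 6.42 in the Miz1 kd-labelled array, 6.34 in Hmhi EGF and 8.87 in Hmhi starved. Synm, an intermediate filament protein of muscle, read 6.31, 6.80, 6.03 and 8.02 in that order. Their differences for Hmhi EGF minus Hmhi starved were -2.53 and -1.99, and both read below the array median in Hmhi EGF, so background limits the folds. Smtn, the smooth muscle protein smoothelin, was at 1.07. Its Hmhi starved level of 6.63 was below the array median, so background limits that fold too. Des, the intermediate filament protein desmin, was at 0.57, Cspg4, a proteoglycan of pericytes, at 0.18 and Hspb6, a small heat shock protein of muscle, at -0.48.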
